A study of Mus musculus with 6 samples.

Results

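The colony-stimulating factors and their receptors, the cytokine system that sets the numbers and activity of macrophages, neutrophils and dendritic cells, were followed in lungs of C57BL/6 mice with silicosis and in control lungs. The family holds 9 genes of the 17973 in the mRNA count table: the ligands Csf1, Il34, Csf2 and Csf3 and the receptor genes Csf1r, Csf2ra, Csf2rb, Csf2rb2 and Csf3r. The genes were chosen by their symbols, with the fold changes of silicosis against control already known, so all values of that comparison given for these 9 genes are a description and not a test. RNA of whole lung was sequenced in 6 libraries. The 3 silicosis libraries, named N129, N136 and N138, came from mice that received silica once, through the windpipe, at a dose of 8 mg carried in 40 µL of saline. The 3 control libraries, C7, C8 and C9, are labelled control, and the text of the series describes the comparison samples as sterile normal saline. Lungs were taken 90 days after treatment and frozen, all mice have 1 strain label, and genotype, sex and age are not given. A single instilled dose is the model here. Whether each library is a different animal is not stated, so p-values measure only the spread between these libraries, which may be technical.

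Colony-stimulating factor 1, or M-CSF, acts through the receptor tyrosine kinase Csf1r to keep macrophages and their precursors alive, and Il34 is a second, structurally distinct ligand of the same receptor. Csf2, or GM-CSF, binds a specific alpha chain, Csf2ra, which pairs with the signalling beta chain Csf2rb; in the lung this signal is needed for alveolar macrophages to mature and to clear surfactant. The mouse carries a second beta chain gene, Csf2rb2, best known as the beta chain specific to interleukin-3. Csf3, or G-CSF, acts through Csf3r to drive the production and release of neutrophils.

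The 2 beta chain genes lie next to each other in the mouse genome and are close copies, which bears on how their reads were counted. In GENCODE transcripts of GRCm38, the coding sequences of Csf2rb (2691 bases) and Csf2rb2 (2637 bases) were identical at 95.2% of 2631 aligned bases, with a longest identical run of 242 bases. The first 120 coding bases of each are shown to make the closeness visible; capitals mark the 4 bases that differ.
Csf2rb: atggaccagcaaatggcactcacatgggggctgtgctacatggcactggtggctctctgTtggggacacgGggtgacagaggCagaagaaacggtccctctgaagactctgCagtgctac
Csf2rb2: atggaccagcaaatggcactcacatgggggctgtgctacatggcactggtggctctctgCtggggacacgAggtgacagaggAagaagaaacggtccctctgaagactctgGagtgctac
Of the 50-base windows of the longest transcript, 18.5% for Csf2rb and 19.7% for Csf2rb2 were also found in transcripts of another gene, nearly all of them in each other. Their separate values are therefore uncertain, and their summed value is given as well.

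Promoter sequences of 5 of the 9 genes were in the RefSeq table of GRCm38.p6. Those of Csf1 and Csf2rb2 are shown because both genes were higher in every silicosis library than in any control library, and because for these genes the RefSeq and GENCODE start sites coincide. Each run holds the 250 bases before the start site, 5′ to 3′ on the gene's strand. The Csf1 stretch is chr3:107760470-107760719, minus strand, and the Csf2rb2 stretch is chr15:78305722-78305971, minus strand; capitals mark motif matches.
Csf1: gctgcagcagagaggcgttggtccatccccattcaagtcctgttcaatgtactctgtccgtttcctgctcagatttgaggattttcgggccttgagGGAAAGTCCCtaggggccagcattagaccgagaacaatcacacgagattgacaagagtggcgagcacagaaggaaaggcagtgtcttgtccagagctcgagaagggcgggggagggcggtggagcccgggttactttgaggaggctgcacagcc
Csf2rb2: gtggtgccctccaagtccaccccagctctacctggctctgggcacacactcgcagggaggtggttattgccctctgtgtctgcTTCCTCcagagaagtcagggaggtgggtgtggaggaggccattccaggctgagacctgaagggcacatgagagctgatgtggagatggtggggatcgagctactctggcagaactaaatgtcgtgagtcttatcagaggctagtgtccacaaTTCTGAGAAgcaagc
The motifs searched on both strands were TATAAA (the core promoter box), TTGCNNAA (C/EBP), TGANTCA (AP-1), TTCNNNGAA (STAT), GAGGAA (PU.1) and the NF-kB consensus. In Csf1 the capitals are an NF-kB match at positions -154 to -145, counted back from the start. In Csf2rb2 they are a PU.1 match at positions -167 to -162 and a STAT match at positions -15 to -7. Among 32851 promoters of the same length, 7.25% held the NF-kB match, 7.02% the STAT match, 23.3% the PU.1 match, 9.56% the C/EBP match, 6.75% the AP-1 match and 12.4% the core promoter box. Csf3r had 1 PU.1 and 1 NF-kB match and Csf2ra had 2 PU.1 matches. The RefSeq start lies 109 bases downstream of the GENCODE start for Csf3r, so its PU.1 match at -86 to -81 lies after the latter, and 11 bases downstream for Csf2ra. The Csf2 stretch had 1 C/EBP match, but its RefSeq start lies 232 bases upstream of the GENCODE start. These matches describe letters, not binding.

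The mRNA libraries held between 33698920 and 44000748 counts, and every member had at least 1 count in each of the 6 libraries. Values below are CPM, counts scaled to a library total of 1000000 after TMM adjustment, a correction for differences in RNA composition, and fold changes are silicosis over control from edgeR, given as log2 values with their standard error (SE). A gene is said to be called where its adjusted p, over all 15808 mRNAs tested, was under 0.05. All 9 members passed the low-count filter, and 7 were called higher and the other 2, Il34 and Csf2, in neither direction. Over all tested mRNAs 15.3% were called higher and 16.5% lower, 31.8% in all. The groups did not overlap for 6 of the 9 members, against 47.7% of all tested mRNAs. The median log2 fold change was 0.88 over the 9 members and 0.02 over all tested mRNAs. Nothing is read from these shares, since the members were picked with this contrast in view. As whole lung was sequenced, more cells of a type and more RNA per cell cannot be told apart.

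**Figure D1:**
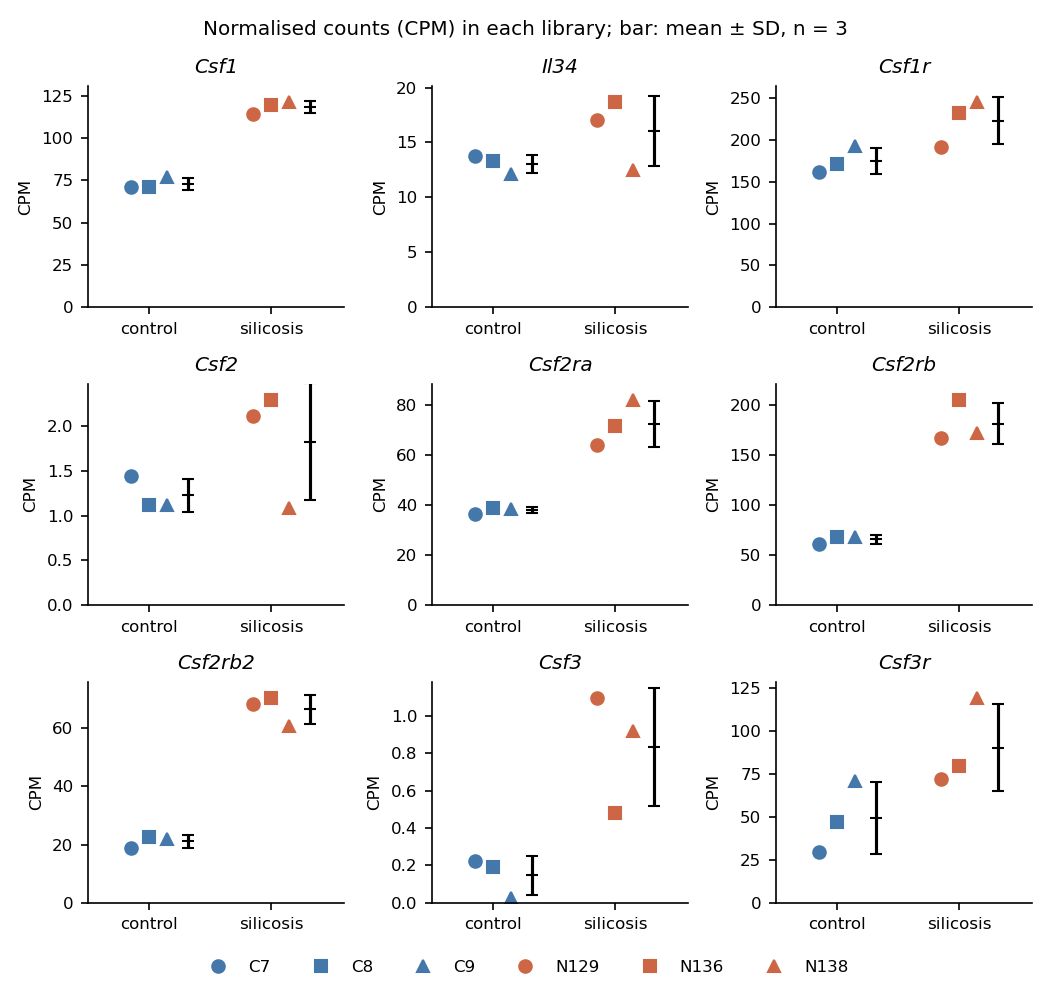
CPM of each of the 9 genes in each library (points; control in blue, silicosis in orange, 1 symbol per library) with the group mean and SD (n = 3), each panel with its own axis from 0. The groups are apart for Csf1, Csf2ra, Csf2rb, Csf2rb2 and Csf3, nearly touch for Csf3r (70.8 CPM in C9, 71.9 CPM in N129), and overlap for Csf1r, Il34 and Csf2.

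The main ligand of the macrophage receptor was higher while its receptor moved little. Csf1 had 70.8, 70.7 and 77.1 CPM in C7, C8 and C9, and 114, 119 and 121 CPM in N129, N136 and N138. All of the silicosis libraries lay well above the controls, and Csf1 averaged 72.9 ± 3.64 CPM in controls and 118 ± 3.59 CPM in silicosis (SD, n = 3), a 1.62-fold difference (log2 0.70, SE 0.08). Il34, the second ligand, had 13.7, 13.3 and 12.1 CPM in the controls and 17.1, 18.6 and 12.5 CPM across N129, N136 and N138. Values in N129 and N136 were above the controls and that in N138 was within them, so the difference (log2 fold change 0.30, SE 0.16) was not called. Without N138 it was 0.45 and was called.

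Csf1r, the receptor of both, had 162, 171 and 192 CPM in C7, C8 and C9, and 191, 232 and 245 CPM in N129, N136 and N138. The lowest silicosis library lay just below the highest control library. The log2 fold change was 0.35 (SE 0.12), and the call ended in 6 of 11 alternatives: with DESeq2 size factors, with no filter, and without C7, C8, N136 or N138. Of the Csf1r windows, 17.7% are shared with Hmgxb3, the gene next to it, and the sources used here do not give a strand setting; Hmgxb3 itself was between 56.7 and 61.9 CPM in all 6 libraries. Per kilobase of the longest transcript, the Csf1 level was 0.470 ± 0.0206 times that of Csf1r in controls and 0.602 ± 0.0607 times in silicosis (SD, n = 3), without overlap between the groups. The size of this ratio depends on the transcript length used. With the median transcript length, Csf1 stood at 34.8 and Csf1r at 125 CPM per kilobase in controls, and at 56.3 and 159 in silicosis.

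Both chains of the GM-CSF receptor were higher in silicosis, the beta chains more than the alpha chain, while the ligand was not called. Csf2ra, the alpha chain, had 36.6, 38.7 and 38.5 CPM in the controls and 63.9, 71.5 and 82.1 CPM in the silicosis libraries. The log2 fold change was 0.93 (SE 0.11), or 1.91-fold. Csf2rb, the shared beta chain, had 60.8, 68.5 and 68.3 CPM in the controls and 167, 205 and 172 CPM in the silicosis libraries, with a log2 fold change of 1.46 (SE 0.11), or 2.75-fold. No silicosis library was near a control library for either chain. Csf2rb2 had 18.7, 22.8 and 22.0 CPM in the controls and 68.4, 70.4 and 60.9 CPM in silicosis, with a log2 fold change of 1.65 (SE 0.11), or 3.15-fold.

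With the 2 beta chain genes counted as 1, their level was 87.0 ± 6.54 CPM in controls and 248 ± 23.6 CPM in silicosis (SD, n = 3). The log2 fold change was 1.51 (SE 0.10). A summed value must lie between those of the 2 genes, so it does not show whether either separate value is right. Csf2rb2 took between 23.5% and 24.9% of the pair's counts in the controls and between 25.6% and 29.0% in silicosis. The Csf2rb level per kilobase was 0.806 ± 0.0299 times that of Csf2ra in controls and 1.17 ± 0.182 times in silicosis (SD, n = 3), also without overlap. Both ratios come from the contrast on which the genes were picked. The Csf2rb to Csf2ra ratio also depends on the longest transcript being used. With the median transcript length, Csf2rb already stood above Csf2ra in controls, at 53.1 against 38.3 CPM per kilobase. In silicosis these were 146 and 73.3.

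Csf2 itself was scarce in every library, with 58, 47 and 43 counts in C7, C8 and C9 and 81, 100 and 39 in N129, N136 and N138. In CPM these were 1.44, 1.12 and 1.12 in the controls and 2.11, 2.29 and 1.09 in silicosis. N129 and N136 lay above the controls and N138 below them, and the log2 fold change of 0.58 (SE 0.35) was not called in the 6 libraries or in any of its 11 alternatives.

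In the neutrophil system the ligand had the steepest fold change of the family from the lowest level, and the receptor varied widely within both groups. Csf3 had 9, 8 and 1 counts in C7, C8 and C9, and 42, 21 and 33 in N129, N136 and N138. These were 0.224, 0.191 and 0.0261 CPM in the controls and 1.10, 0.482 and 0.918 CPM in silicosis, and even the lowest silicosis library lay above the highest control. The log2 fold change was 2.45 (SE 0.64), or 5.48-fold; it was between 1.98 without C9 and 2.86 without C7, and the call ended without N129. Csf3r had 29.3, 47.2 and 70.8 CPM in C7, C8 and C9, and 71.9, 79.5 and 119 CPM in N129, N136 and N138. The highest control library almost reached the lowest silicosis library. Csf3r averaged 49.1 ± 20.8 CPM in controls and 90.1 ± 25.3 CPM in silicosis (SD, n = 3), a log2 fold change of 0.88 (SE 0.30). The call ended in 6 of 11 alternatives: with DESeq2 and without C7, C8, N129, N136 or N138. The fold change was 0.61 without C7 and 1.23 without C9. Of the Csf3r windows, 11.4% are shared with other genes.

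**Figure D2:**
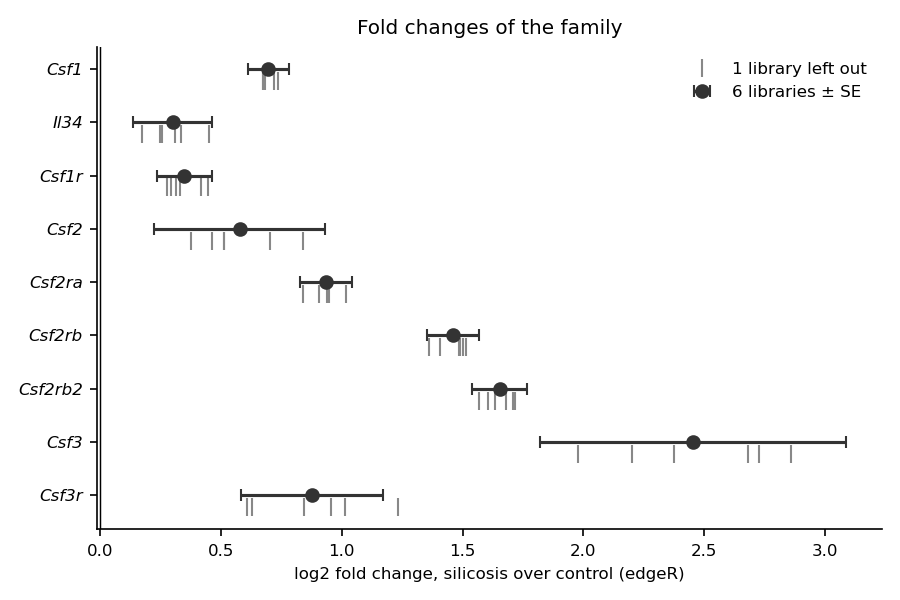
Log2 fold change of each gene, silicosis over control, with all 6 libraries (points, bars show the SE) and with each library left out in turn (grey ticks). The ticks stay close to the point for Csf1, Csf2ra, Csf2rb and Csf2rb2 and spread from 0.61 to 1.23 for Csf3r and from 1.98 to 2.86 for Csf3.

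Csf3r moved with a second neutrophil receptor from library to library. By the root mean square distance over the 6 libraries between log2 CPM values centred on the control mean, the gene most like Csf3r was Cxcr2, the chemokine receptor that draws neutrophils into tissue (distance 0.11), followed by Slco1c1 and Scn11a (0.16 and 0.19). Cxcr2 had 7.30, 12.4 and 16.9 CPM in the controls and 16.6, 19.7 and 25.5 CPM in silicosis, and was not called. Both genes were lowest in C7 and highest in N138, with a 4.05-fold range for Csf3r and a 3.49-fold range for Cxcr2. Within a library, the Csf3r CPM was between 3.81 and 4.66 times the Cxcr2 CPM, and these values are a description over 6 libraries that share 2 groups. As Cxcr2 was picked for its closeness to Csf3r, the narrow ratio restates that choice and does not add to it. Of 10 tested neutrophil markers, Cxcr2 among them, 5 were called higher and 5 were not called, and their summed level was between 81.5 and 141 CPM in controls and between 359 and 425 CPM in silicosis. S100a8, an alarmin of neutrophils, and Ltf, a granule protein that airway glands also make, had the highest mean levels of the list in silicosis, although in N138 Ltf (51.4 CPM) lay below Mmp9 (99.6 CPM) and S100a9 (56.4 CPM). Ly6g, the marker that defines mouse neutrophils, was between 0 and 0.313 CPM in controls and between 0.339 and 1.34 CPM in silicosis and was not called. Retnlg, a resistin-like protein of neutrophils, was between 15.2 and 24.4 CPM in controls and between 8.37 and 21.3 CPM in silicosis and was not called either. The immature-cell granule genes Elane and Mpo had at most 2 and 21 counts in a library and were not tested. The part of neutrophil number in the Csf3r values was not tested.

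**Figure D3:**
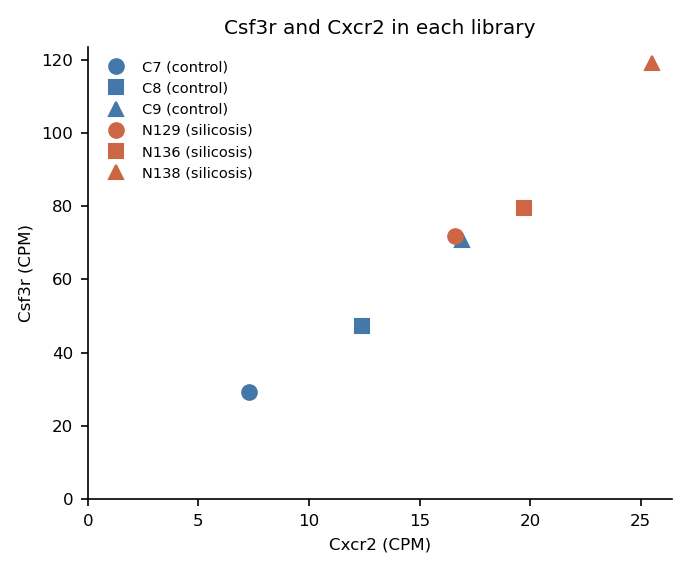
CPM of Csf3r (vertical axis) against CPM of Cxcr2 (horizontal axis), 1 point per library, controls in blue and silicosis in orange. Both genes rise together across the 6 libraries, and control C9 (70.8 CPM Csf3r) lies on silicosis N129 (71.9 CPM).

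The macrophage markers of the same libraries stood as follows. Of 7 general macrophage markers, 6 were called higher and 1 lower, with a summed level between 2979 and 3541 CPM in controls and between 5290 and 9787 CPM in silicosis; most of it was Lyz2, lysozyme, which alveolar type 2 cells also make. Cd68, a lysosomal protein of macrophages, rose by 0.96 on the log2 scale (SE 0.24) and Adgre1, which encodes F4/80, by 0.67 (SE 0.16). Itgam rose by 1.77 (SE 0.22) but shares 72.4% of its windows with another gene. Mertk, a receptor for the uptake of dead cells, fell by 0.44 (SE 0.10). Of 12 alveolar macrophage markers 2 were called higher and 5 lower, with summed levels between 554 and 666 CPM in controls and between 539 and 812 CPM in silicosis. Chil3, a chitinase-like protein, carries much of that sum, with 277 to 363 CPM in controls and 290 to 576 CPM in silicosis, was not called and shares 29.9% of its windows with other genes. The 5 that fell were Siglecf, Ear2, Car4, Krt79 and Fabp1. Ear2 shares 41.0% of its windows with other genes. The 2 that rose were Fabp4 (log2 difference 1.80, SE 0.32) and Atp6v0d2 (1.25, SE 0.21). Without Chil3, a sum also added after the values were seen, the range was 262 to 303 CPM in controls and 237 to 278 CPM in silicosis. Car4 carries much of this second sum, with 92.0 to 108 CPM in controls and 45.3 to 53.4 CPM in silicosis. Atp6v0d2 went the other way, from between 31.6 and 40.1 CPM to between 63.9 and 114 CPM. As whole lung was sequenced, the cell type in which Car4 was lower is not known. Of 10 interstitial macrophage markers 3 were higher and 2 lower (460 to 537 CPM against 406 to 477 CPM), with a median log2 fold change of 0.12. Lyve1, called lower, carries much of that sum, with 207 to 245 CPM in controls and 97.7 to 119 CPM in silicosis. The sum without Lyve1 was not calculated, so the lower sum does not stand for the whole list. Of 8 monocyte markers 4 were higher and 1, Ace, was lower; Ace carries most of that sum (1502 to 1808 CPM against 1069 to 1093 CPM) and is also made by endothelium. Of 8 dendritic cell markers 2 were higher and 1 lower (262 to 290 CPM against 307 to 378 CPM). Itgax, an integrin that lung macrophages also express, carries that difference: without it, a sum added after the values were seen, the range was 173 to 208 CPM in controls and 168 to 179 CPM in silicosis. None of these markers was at 0 in a whole group, and the part of cell numbers in the receptor values was not tested.

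Markers of other lung cell types that can make the ligands were also measured. Of 8 fibroblast markers 3 were called higher and 4 lower (3371 to 3869 CPM against 2768 to 3386 CPM). Among the 3, Col1a1 rose by 1.02 (SE 0.17) and Col1a2 by 0.67 (SE 0.17) on the log2 scale. Among the 4, Npnt fell by 1.34 (SE 0.11) and Inmt by 1.90 (SE 0.22), so the sum does not stand for the whole list. Of 7 endothelial markers 5 were lower (5921 to 6259 CPM against 3101 to 3179 CPM). Of 6 alveolar type 2 markers, cells known as a source of Csf2, 1 was lower and 5 were not called (14463 to 16731 CPM against 12855 to 19338 CPM). Of 4 tested markers of type 2 innate lymphoid cells 1 was higher and 1 lower. All of the 5 lung identity markers were present, with Sftpc, surfactant protein C, between 7553 and 11749 CPM, although 3 of them were called lower.

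Levels can be compared between genes only per length, and the order was then as follows in the control lungs, in CPM per kilobase of the longest transcript (mean ± SD, n = 3). Csf1r stood highest at 37.2 ± 3.28. Csf1 at 17.5 ± 0.872, Csf2ra at 16.7 ± 0.507, Csf3r at 14.1 ± 5.98 and Csf2rb at 13.4 ± 0.896 followed. Within these 4, Csf1 and Csf2ra overlapped and Csf3r overlapped all of the others, so their order is not fixed beyond the spread. Il34 at 7.28 ± 0.464, Csf2rb2 at 4.46 ± 0.458, Csf2 at 1.54 ± 0.229 and Csf3 at 0.104 ± 0.0750 came below, each apart from the next. In silicosis Csf1r was at 47.4 ± 5.93 and Csf2rb second at 37.0 ± 4.15, ahead of Csf2ra at 31.8 ± 4.0, Csf1 at 28.3 ± 0.860 and Csf3r at 25.9 ± 7.26. Each of these 5 overlapped the next in its library values. Csf2rb2 at 14.0 ± 1.06 then stood above Il34 at 8.94 ± 1.78, the reverse of their order in controls, and Csf2 and Csf3 stayed lowest at 2.29 ± 0.815 and 0.589 ± 0.224. With the median transcript length in place of the longest, Csf2rb was already second in controls at 53.1, behind Csf1r at 125.

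**Figure D4:**
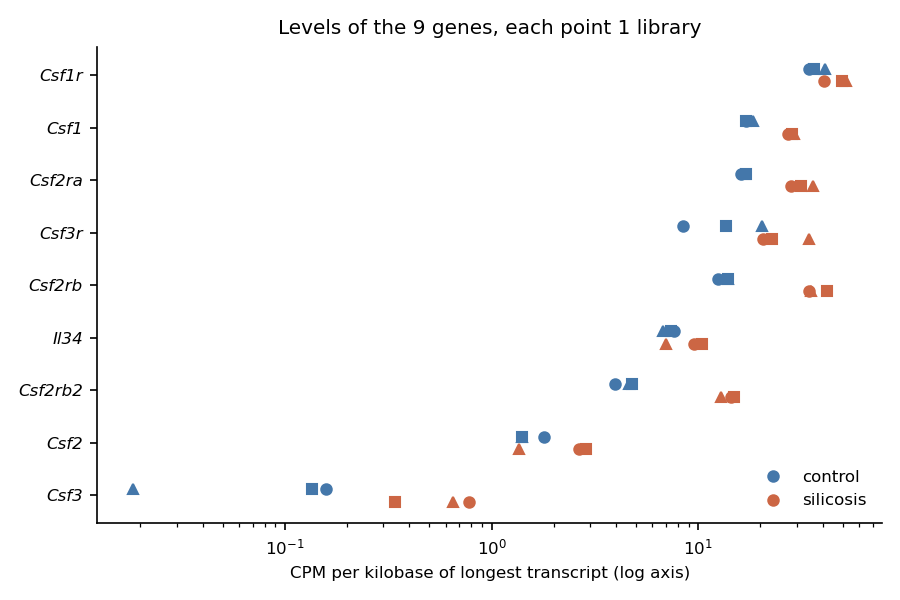
CPM per kilobase of the longest transcript on a log axis, 1 point per library, controls in blue and silicosis in orange, genes ordered by the control mean. Csf1r is highest in both groups and Csf3 lowest, and Csf2rb2 lies below Il34 in controls and above it in silicosis.

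The other genes of these pathways came from lists written with earlier results of these data known. Of 77 tested, 27 were called higher and 11 lower by edgeR, with a median log2 fold change of 0.21. The shares to set beside this and each list below are those over all tested mRNAs, 15.3% higher and 16.5% lower. The other genes of the beta chain family were not called: of 3 tested, edgeR, DESeq2 and limma-voom each called 0, and 0 had an unadjusted p under 0.05. Il5, the eosinophil growth factor, was between 0.115 and 0.652 CPM. The alpha chains Il3ra and Il5ra had log2 fold changes of 0.27 (SE 0.13) and -0.53 (SE 0.25). No gene of the symbol Il3 was among the mRNAs counted, so it could not be analysed here.

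Of 34 receptor-proximal signalling genes 10 were called higher and 3 lower, with a median of 0.09. Socs3, a feedback inhibitor that cytokine receptors induce through Stat3, had 40.1, 43.9 and 37.7 CPM in controls and 123, 140 and 89.5 CPM in silicosis. It rose by 1.53 (SE 0.16; adjusted p = 0.000221 by edgeR). Pik3cg, a phosphoinositide 3-kinase subunit of leukocytes, rose by 0.90 (SE 0.13). Pik3r1, a regulatory subunit of the same kinase family, fell by 0.62 (SE 0.08), and Sh2b3, an adaptor that restrains cytokine signalling, fell by 0.44 (SE 0.09). Stat5b, which carries the GM-CSF signal to the nucleus, fell by 0.25 (SE 0.08). The Stat5b call ended when any 1 library was left out. Stat5a, its close copy, was between 29.4 and 37.8 CPM in controls and between 38.1 and 43.7 CPM in silicosis (log2 difference 0.29, SE 0.12) and was not called; 11.5% of the Stat5b windows are shared with it. Jak2, the kinase bound to the GM-CSF receptor and named after its values were seen, went from between 121 and 126 CPM to between 174 and 194 CPM. Cish, a feedback inhibitor known as a Stat5 target, was between 29.1 and 58.4 CPM with no separation of the groups.

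Among 20 myeloid transcription factors 9 were called higher and 2 lower, with a median of 0.45. Egr2, an early growth response factor of macrophages, went from between 5.12 and 6.81 CPM to between 21.4 and 28.8 CPM, a log2 difference of 2.01 (SE 0.17; adjusted p = 0.000103 by edgeR). Bhlhe40, a factor of resident macrophages and lymphocytes, rose by 1.02 (SE 0.13). Klf4, a factor of monocytes that endothelium also expresses, fell by 1.05 (SE 0.25) and Maf fell by 0.39 (SE 0.10); the Maf call ended without C7 or C8. Spi1, which encodes PU.1, was between 36.5 and 46.1 CPM in controls and between 38.0 and 53.1 CPM in silicosis. Pparg, the factor that GM-CSF induces in alveolar macrophages, was between 13.7 and 16.4 CPM in controls and between 14.4 and 17.9 CPM in silicosis, and neither was called; Spi1 and Pparg were named after their values were seen.

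Of 10 tested cytokines known to induce colony-stimulating factors or to act beside them, 7 were called higher and 1 lower, with a median of 2.03. Tnf had 1.34, 0.981 and 1.33 CPM in controls and 26.7, 12.4 and 10.9 CPM in silicosis, a log2 difference of 3.77 (SE 0.37; adjusted p = 0.000189 by edgeR). Il36g, an epithelial member of the interleukin-1 family, rose by 3.75 (SE 0.38), and Il6 rose by 2.70 (SE 0.50). Tslp, an epithelial cytokine, fell by 1.06 (SE 0.35), and this call ended without C7, C8, C9, N136 or N138. Il17a and Il17f did not pass the low-count filter.

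The receptor kinases closest to Csf1r and their ligands were mostly lower. Of 8 genes 5 were called lower and 3 were not called, with a median of -0.39. Pdgfra, a platelet-derived growth factor receptor of fibroblasts, went from between 511 and 520 CPM to between 248 and 357 CPM (log2 difference -0.72, SE 0.13; adjusted p = 0.00374 by edgeR). Its ligand genes Pdgfa and Pdgfb fell by 0.41 (SE 0.08) and 0.40 (SE 0.10). The Pdgfb call ended without C7 or C8, at -0.36 and -0.39. Flt3, a receptor of dendritic cell precursors, was between 9.59 and 10.4 CPM in controls and between 10.6 and 12.1 CPM in silicosis and was not called. Of the other reported receptors of Il34, Sdc1, syndecan-1, rose by 0.64 (SE 0.13) and Ptprz1 was not called. A test of the difference between these lists and the family was not made.

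**Figure D5:**
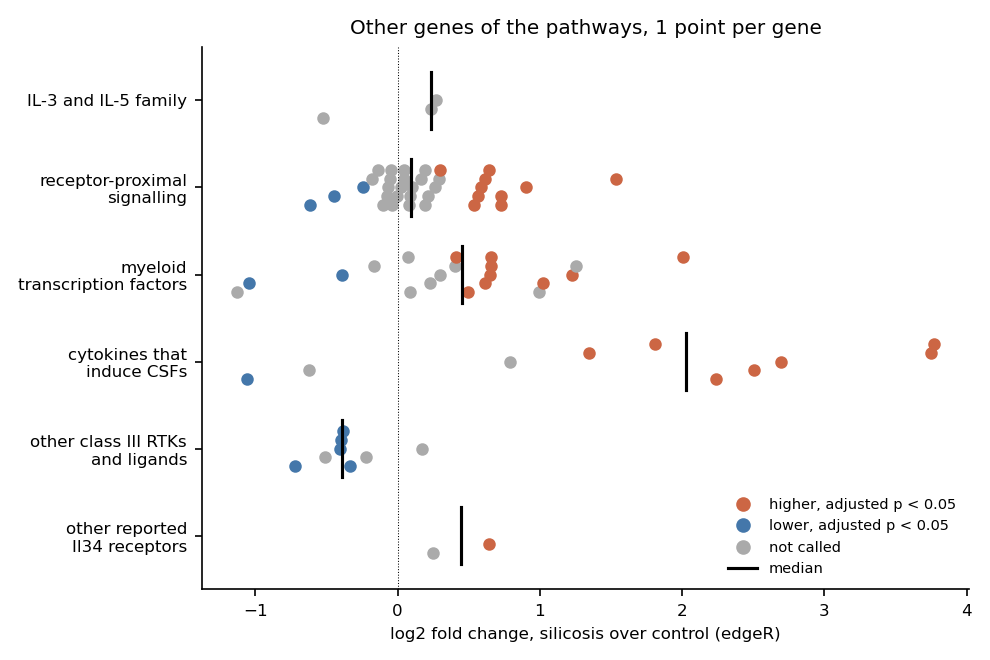
Log2 fold change, silicosis over control, of 77 other genes of the pathways in 6 lists (points; orange called higher, blue called lower, grey not called; black bars are list medians). The cytokine list has its median at 2.03 and the list of other receptor kinases and their ligands at -0.39.

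Genes flanking the members were then compared, taking the nearest tested gene on each side in the gene order of RefSeq GRCm38.p6. Of 15 such genes that are not members, 3 were called higher, 2 lower and 10 in neither direction. Over all tested mRNAs 31.8% were called, 15.3% higher and 16.5% lower, so the flanking genes were called about as often as any. Ncf4, which encodes a subunit of the phagocyte NADPH oxidase and lies beside Csf2rb2, was at most 15.6 CPM in controls and at least 27.6 CPM in silicosis (log2 difference 1.19, SE 0.15; adjusted p = 0.00053 by edgeR). Acsl6, a fatty acid activating enzyme near Csf2, was at most 0.0957 CPM in controls and between 0.704 and 0.872 CPM in silicosis (log2 difference 3.51, SE 0.51; adjusted p = 0.00111 by edgeR). Ahcyl1 beside Csf1 rose by 0.40 (SE 0.08), while Mrps15 beside Csf3r fell by 1.04 (SE 0.18) and Mtss2 beside Il34 fell by 0.99 (SE 0.08).

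Among the lncRNAs, 3 features at the locus of a member were looked at. Gm15895, which overlaps the start of Il34, had 21, 13 and 16 counts in C7, C8 and C9 and 46, 28 and 20 in N129, N136 and N138 (log2 difference 0.88, SE 0.45; adjusted p = 0.301 by edgeR). Gm15894, inside Il34, had 26, 21 and 36 counts in the controls and 21, 5 and 35 in silicosis (log2 difference -0.55, SE 0.51; adjusted p = 0.62 by edgeR). Neither was called, where 5.78% of 3320 tested lncRNAs were. Gm12223, which spans Csf2, had 3 counts in C8, 2 in N136 and 0 elsewhere, too few to compare.

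By the same distance as used for Csf3r, the genes nearest in pattern to the other members were as follows. For Csf2rb they were B3galt5, a glycosyltransferase, Slc40a1, the iron exporter, and Esd (distances 0.07, 0.09 and 0.09). For Csf2rb2 they were Fam20c, a secretory pathway kinase, Tnfrsf26 and Acp5, a lysosomal acid phosphatase of macrophages and osteoclasts (0.10, 0.13 and 0.13). For Csf2ra they were Pcdh7, Zbtb7c and Metrnl (0.06, 0.07 and 0.08), and for Csf1 they were Ell2, Mapkapk3 and Pik3ap1 (0.04, 0.06 and 0.06). For Csf1r they were Plekhm2, Gsr and Tecpr2 (0.05, 0.05 and 0.06). Csf3 had no close match, with Olfr109, Nxph1 and Zfp985 at 0.34, 0.39 and 0.42. For Il34 they were Ogfr, H2-Eb1 and Arhgap11a (0.03, 0.04 and 0.04), and for Csf2 they were H2-K1, Frmd3 and Cxcr4, each at 0.11.

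In the authors' deposited table the log2 fold changes were 0.69 for Csf1, 0.34 for Csf1r, 0.93 for Csf2ra, 1.45 for Csf2rb, 1.65 for Csf2rb2, 2.48 for Csf3 and 0.87 for Csf3r. The authors' deposited table gives 6 of the 9 genes an adjusted p under 0.05, and gives Csf3r one of 0.102.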

How the data were processed

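RNA of whole lung was sequenced in 3 control and 3 silicosis libraries, which the titles name. The deposited mRNA and lncRNA tables hold raw whole-number counts per gene, and the authors' deposited comparison table holds log2 fold changes with p-values. Per the submitters' processing notes, which give no roles, the tools were featureCounts 2.0.0, DESeq2 1.36.0, HISAT2, Trimmomatic 0.39 and Bowtie2, with build GRCm39. The annotation and strand setting were not given in the sources used here. Each table was fitted with edgeR 4.0.16 in R 4.3.3 (filterByExpr, TMM, quasi-likelihood F test, two-sided, Benjamini-Hochberg, threshold 0.05). The filter kept 15808 of 17973 mRNAs. Libraries of a group were distinct (chi-square per degree of freedom between 15.0 and 79.0). Precision is limited by 3 libraries per group and, for Csf3, by few counts.

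The members, lists and tests were chosen with earlier results of these data known. Named partners are up to 3 called genes per list and direction with the largest fold changes, no overlap between groups and a mean log2 CPM of at least 0, of which some are not reported here; named pattern matches are the nearest 3 without uncharacterised symbols. Flanking genes are named if called, and of markers the most expressed or those at 0. Jak2, Cish, Spi1, Pparg, Flt3, Ptprz1, Hmgxb3, Cd68, Adgre1, Itgam, Mertk, Ly6g, Retnlg, Mmp9, S100a9, Stat5a, Itgax and the alveolar macrophage markers that fell or rose were named after their values were seen. So were Npnt and Inmt. Windows of 50 bases every 5 bases and transcript lengths came from GENCODE vM21 (GRCm38), an earlier build than GRCm39, so the only coordinates given are those of the printed RefSeq promoters, in GRCm38.p6. Alternatives were limma-voom (limma 3.58.1), DESeq2 1.42.0, its size factors within edgeR, no low-count filter, leaving out each library, summing the beta chain genes, and median transcript length. The edgeR step was tested on counts simulated for the mRNA comparison over 15808 genes. It found 78% of 100 genes with a 2-fold change and 96% of 100 with a 4-fold change. Of its calls, 4.40% fell on unaltered genes. The altered genes were drawn only from those above a minimum mean level, which Csf3 did not reach. They were also far fewer than the 31.8% of mRNAs called in these data, so the rates may not hold here. The circRNA tables were not used here, as their identifiers name no host gene.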

Additional observations from a re-analysis of the deposited data

How the results depend on the processing

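Called genes numbered between 1617 and 2673 higher and between 1867 and 2883 lower across the alternatives. In the edgeR fit used above they numbered 2421 and 2602 of 15808 mRNAs. The alternatives did not all cover the same mRNAs. The fit with no filter and that with DESeq2 took unfiltered counts, and each fit without 1 library was filtered anew. Of the other pathway genes, between 21 and 31 were called higher against 27. Of these, 11 were called lower with all libraries and under each alternative scaling, filter or tool, but between 5 and 9 with 1 library left out: 5 without C7, 5 without C8 and 7 without N138. Fitting fewer libraries leaves less information on the spread. Among the members, Csf1, Csf2ra, Csf2rb and Csf2rb2 stayed called and Csf2 stayed uncalled under each alternative run, and no member changed direction. The calls of Csf1r and Csf3r ended in 6 of 11 alternatives each, that of Csf3 ended without N129, and Il34 was called without N138; the cause was not tested. The order of levels per kilobase depended on the transcript length used. No paired analysis was possible because the labels give no pairing of control and silicosis libraries. Csf3 and Csf2 had the fewest counts of the members, 1 to 42 and 39 to 100 per library.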

Other observations

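Single libraries stood out among inducers of the family, in genes singled out after their values were seen. Il17a, which induces Csf3 in epithelium, had 0 counts in each control library and 30, 4 and 5 counts in N129, N136 and N138. Il17f had 7, 9 and 2 counts in the controls and 15, 3 and 0 in silicosis. N129 also held the highest silicosis values of Csf3 (1.10 CPM), Tnf (26.7 CPM), Il6 (4.69 CPM) and Lif (26.0 CPM). It held 275 CPM of the immediate-early gene Egr1, against 31.7 and 37.2 CPM in N136 and N138. Other tested inducers went both ways in N129. Il1b (71.4 CPM) and Il36g (21.9 CPM) were lowest there among the silicosis libraries, while Il1a (14.9 CPM) was highest. N138 held the lowest silicosis values of both uncalled ligands, Csf2 (1.09 CPM) and Il34 (12.5 CPM), together with the lowest Il33 (87.9 CPM) and Cebpd (59.7 CPM) of the 3, and the highest Csf3r (119 CPM).

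Markers of other granulocytes were also measured. Of 3 tested eosinophil markers 2 were called lower and 1 higher: Ccr3, the eotaxin receptor, went from 8.26 ± 1.71 to 1.41 ± 1.02 CPM (SD, n = 3) and Siglecf, which alveolar macrophages also express, from 16.1 ± 1.22 to 6.20 ± 1.77 CPM, while Prg2, major basic protein, was at most 0.444 CPM in controls and between 0.918 and 4.13 CPM in silicosis. Of 6 mast cell markers 0 were called by edgeR, DESeq2 or limma-voom, and 0 had an unadjusted p under 0.05.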
